A study of Mus musculus with 9 samples.

Results

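Thioredoxin reductases, sulfiredoxin and peroxiredoxins were followed in neonatal rat ventricular cardiomyocytes (NRVMs, cultured heart muscle cells of newborn rats) that overexpressed Nrf1 or Nrf2. The set was chosen by name, with earlier results of these data known. It comprises 10 genes: the reductases *Txnrd1* and *Txnrd2*, the sulfiredoxin gene *Srxn1*, the thioredoxin-binding *Txnip* and the peroxiredoxin genes *Prdx1* to *Prdx6*. All 10 were among the 11592 genes tested, of 14442 genes with solved reads in all 3 groups. Cells from Sprague-Dawley rats aged 1 or 2 days were cultured for 48 h and infected with adenovirus at a multiplicity of infection of 50. Per the study's methods, they were collected for RNA a further 48 h after infection. The groups were LacZ (a bacterial enzyme, the control), Nrf1 and Nrf2, with 3 libraries each, and all of them, controls included, received virus from the same CMV-promoter vector with a red fluorescent protein. Nrf1 and Nrf2 were the mouse proteins, expressed by a promoter that is not specific to cardiomyocytes. GEO's organism field reads mouse, whereas the cell type, strain and protocol labels and the genome build are those of rat. No label states whether the libraries of a group came from separate cell isolations, so the p-values measure the spread between these libraries, which may be technical.

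Thioredoxin is a small protein that reduces oxidized cysteines on other proteins, and thioredoxin reductase, a selenoprotein, regenerates it with electrons from NADPH. Peroxiredoxins reduce peroxides through a reactive cysteine, and most of them are returned to the active state by thioredoxin. Sulfiredoxin repairs peroxiredoxins whose cysteine has been overoxidized, and Txnip binds thioredoxin and blocks it. In the heart, where mitochondria produce much of the peroxide, *Txnrd2* and *Prdx3* act inside mitochondria. *Srxn1*, *Txnrd1* and *Prdx1* are textbook target genes of Nrf2.

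The authors deposited means per group, and the read counts of the single libraries were solved from them, since each group has a mean in 2 tables with different size factors. Libraries are listed here in order of decreasing depth, with between 7874370 and 11905027 reads each, because they could not be matched to the replicate numbers of the labels. Values are in CPM, normalized read counts scaled to 1000000 reads per library. The 10 genes had between 141 and 9287 reads per library, and the coefficient of variation within a group lay between 0.626% and 11.7%. No 2 libraries of a group agreed within sampling noise, with a chi-square per degree of freedom between 1.49 and 5.0 over genes with at least 20 reads. The second LacZ library had the lowest LacZ value for 8 of the 10 genes. Differences were tested with limma, with p-values adjusted (Benjamini-Hochberg) over all 11592 genes. Genes are said to rise or fall where the adjusted p was under 0.05, and are called where the fold change was also above 1.5. *Nfe2l2*, which encodes Nrf2, had a mean of 360 CPM in LacZ, 295 in Nrf1 and 7742 in Nrf2 libraries, a log2 fold change of 4.42 for Nrf2 over LacZ (adjusted p = 8.08e-21). Reads of the transgene and of the cells' own gene cannot be told apart there. *Nfe2l1*, which encodes Nrf1, was not analysed here, so the Nrf1 label was not checked in this way.

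Cardiomyocyte markers were abundant in all groups, with a summed level of 8850 to 9781 CPM in LacZ, 7828 to 7888 in Nrf1 and 10160 to 10510 in Nrf2 libraries over 7 markers. With Nrf1, *Ryr2*, the calcium release channel, was called higher, and *Tnni3* and *Myh7*, of the contractile apparatus, were called lower (log2 fold change 0.82, -0.98 and -1.08). On the adjusted p alone, 1 of the 7 rose and 4 fell with Nrf1. With Nrf2 none of the 7 was called (5 rose and 1 fell on the adjusted p). Of all genes tested, 10.9% were called higher and 17.0% lower with Nrf1, and 8.91% and 9.83% with Nrf2. On the adjusted p alone these shares were 33.4% and 33.0%, and 28.8% and 27.6%. Most markers of other cell types fell with both factors. The 8 fibroblast markers summed to between 12670 and 13310 CPM in LacZ, 3190 and 3441 in Nrf1 and 6579 and 7124 in Nrf2 libraries. All 8 were called lower in Nrf1 libraries (median log2 fold change -1.88) and 6 of 8 in Nrf2 libraries (median -1.01). *Col1a1*, a fibrillar collagen gene, fell from 9530 ± 27.3 CPM (SD, n = 3) in LacZ to 2478 ± 112 in Nrf1 and 5158 ± 213 in Nrf2 libraries. Of 7 leukocyte markers, 6 were called lower with each factor, and their summed level of 167 to 246 CPM in LacZ became 99.4 to 102 in Nrf1 and 92.7 to 104 in Nrf2 libraries. The seventh, *Csf1r*, a receptor of macrophages named here after its values were seen, rose with Nrf1 (log2 fold change 0.45, adjusted p = 0.00314) and had a value of 0.10 with Nrf2 (adjusted p = 0.516). Of 5 endothelial markers, 3 were called lower with each factor, among them *Pecam1* (log2 fold change -0.90 and -0.81). Values above 0, neither past the test, were those of *Kdr* in Nrf1 libraries (0.13, adjusted p = 0.106) and *Tek* in Nrf2 libraries (0.21, adjusted p = 0.061). Under the other factor each of these genes fell, *Kdr* by 0.41 and *Tek* by 0.47 on the log2 scale. In these bulk samples, fewer cells of a type and less RNA per cell cannot be told apart. The part of these shifts in the results that follow was not tested.

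With Nrf1, *Srxn1*, *Prdx1* and *Prdx5* were called higher and *Prdx4* was called lower, 3 and 1 of 10, against 10.9% of all genes tested called higher and 17.0% called lower. With Nrf2, *Srxn1*, *Txnrd1*, *Prdx1*, *Prdx6* and *Prdx3* were called higher and no member was called lower, against 8.91% and 9.83% of all genes. On the adjusted p alone, 7 of the 10 rose and 2 fell with each factor, against 33.4% and 33.0% of all genes with Nrf1 and 28.8% and 27.6% with Nrf2. The median log2 fold change of the members was 0.27 with Nrf1 and 0.49 with Nrf2, beside -0.01 and -0.01 over all genes. Both comparisons use the same LacZ libraries. The list was chosen with earlier results of these data known and holds textbook targets of Nrf2. The shares and medians of all genes are therefore given as background, not as a test of the list. The libraries of the 2 groups did not overlap for 7 members that were higher and 2 that were lower with each factor, against 34.8% and 34.6% of all genes with Nrf1 and 31.1% and 30.1% with Nrf2. The ratios of the authors' deposited means gave the same counts of members past 1.5-fold, where 15.1% of listed genes were higher and 24.3% lower with Nrf1, and 15.6% and 15.5% with Nrf2. These ratios differed from the limma estimates by at most 0.02 on the log2 scale.

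**Figure D1:**
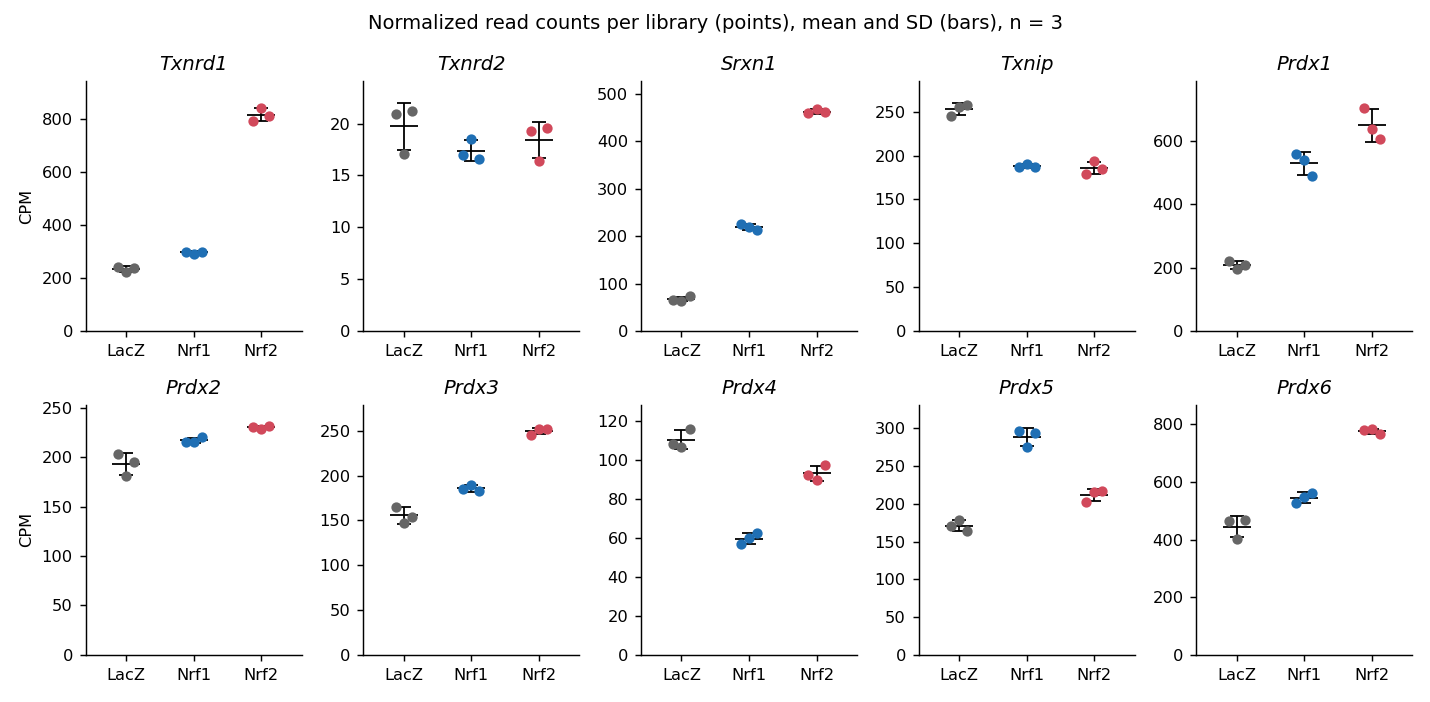
Normalized read counts (CPM, linear axis from 0) of the 10 genes in the LacZ, Nrf1 and Nrf2 libraries. Points are the 3 libraries of a group and bars are the mean and SD. The Nrf2 libraries are highest for *Txnrd1* (793 to 843 CPM) and *Srxn1* (459 to 468 CPM), the Nrf1 libraries are highest for *Prdx5*, and the groups overlap for *Txnrd2*.

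*Txnrd1* encodes the cytosolic thioredoxin reductase. It was present at 244, 222 and 240 CPM in the LacZ libraries, 301, 292 and 299 in the Nrf1 libraries and 793, 843 and 814 in the Nrf2 libraries. The 3 groups did not overlap, and the Nrf2 libraries stood far above both others. Nrf2 raised it 3.47-fold (log2 fold change 1.80, 95% interval 1.72 to 1.87, adjusted p = 8.11e-18), whereas the rise with Nrf1 was 1.26-fold (log2 fold change 0.34, interval 0.25 to 0.42, adjusted p = 5.25e-07) and was not called. Compared directly, Nrf2 libraries were 2.75-fold above Nrf1 libraries (adjusted p = 1.34e-16), the largest such difference among the 10 genes.

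*Txnrd2*, the mitochondrial reductase, had the lowest read counts of the set. Its levels were 20.9, 17.1 and 21.2 CPM in LacZ, 17.0, 18.5 and 16.6 in Nrf1 and 19.3, 16.4 and 19.6 in Nrf2 libraries, and all groups overlapped. The log2 fold change was -0.18 with Nrf1 (interval -0.40 to 0.04, adjusted p = 0.145) and -0.10 with Nrf2 (interval -0.31 to 0.11, adjusted p = 0.419). Differences within those intervals are not excluded. Without the second LacZ library the Nrf1 value was -0.28 (adjusted p = 0.0249), past the test but under the 1.5-fold limit. Whether it passed the test thus depended on 1 library.

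*Srxn1*, the sulfiredoxin gene, rose most of the 10 with either factor. It was measured at 66.4, 64.1 and 73.2 CPM in LacZ, 226, 220 and 214 in Nrf1 and 459, 468 and 461 in Nrf2 libraries, 3 steps without overlap. The rise was 3.25-fold with Nrf1 (log2 fold change 1.70 ± 0.05 SE, adjusted p = 8.79e-16) and 6.83-fold with Nrf2 (2.77 ± 0.05, adjusted p = 3.39e-19). Nrf2 libraries held 2.10 times the level of Nrf1 libraries (log2 fold change 1.07, interval 1.00 to 1.14, adjusted p = 1.27e-14).

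*Txnip*, the inhibitor of thioredoxin, fell with both factors. Its levels were 245, 256 and 258 CPM in LacZ, 187, 190 and 187 in Nrf1 and 179, 194 and 185 in Nrf2 libraries. Every LacZ library lay above every other library, while the Nrf1 and Nrf2 libraries overlapped. It fell by 25.5% in Nrf1 libraries (log2 fold change -0.42, adjusted p = 1.06e-08) and fell by 26.5% in Nrf2 libraries (-0.44, adjusted p = 7.54e-09), under the 1.5-fold limit in each case. Between the factors the log2 fold change was -0.02 (interval -0.10 to 0.06, adjusted p = 0.690), which bounds any difference but does not show that they act alike.

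**Figure D2:**
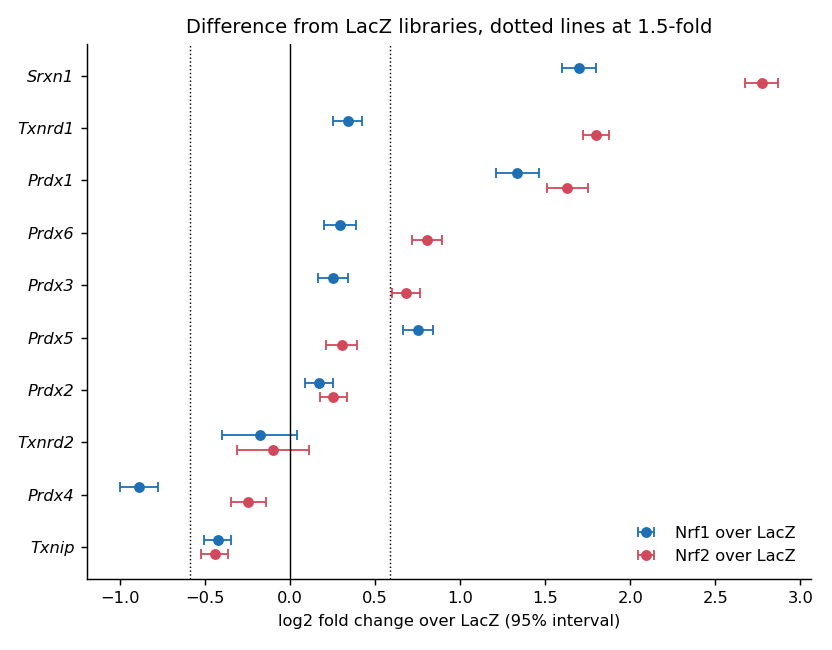
Log2 fold change over LacZ of each gene with its 95% interval from limma, for Nrf1 (blue) and Nrf2 (red). Dotted lines mark a 1.5-fold difference. *Srxn1* lies farthest to the right with both factors (1.70 and 2.77), *Txnrd1*, *Prdx6* and *Prdx3* lie past the line only with Nrf2, *Prdx5* and *Prdx4* only with Nrf1, and both intervals of *Txnrd2* include 0.

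Among the peroxiredoxins, *Prdx1*, a cytosolic member, changed most over LacZ with each factor. It was found at 221, 198 and 210 CPM in LacZ, 559, 539 and 489 in Nrf1 and 705, 637 and 605 in Nrf2 libraries. Nrf1 raised it 2.53-fold (log2 fold change 1.34, adjusted p = 5.20e-13) and Nrf2 3.10-fold (1.63, adjusted p = 3.64e-14). The Nrf2 libraries were 1.23-fold above the Nrf1 libraries (adjusted p = 7.89e-05), and the libraries of these groups did not overlap.

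*Prdx6*, a peroxiredoxin that uses glutathione rather than thioredoxin as its reductant, and *Prdx3*, the mitochondrial peroxiredoxin, were called with Nrf2 but not with Nrf1. *Prdx6* stood at 463, 403 and 468 CPM in LacZ, 526, 547 and 563 in Nrf1 and 778, 782 and 765 in Nrf2 libraries. The increase was 1.75-fold with Nrf2 (adjusted p = 8.74e-12) and 1.23-fold with Nrf1 (adjusted p = 9.54e-06). For *Prdx3* the libraries gave 165, 147 and 154 CPM in LacZ, 185, 189 and 182 in Nrf1 and 246, 252 and 252 in Nrf2. This was a rise of 60.4% with Nrf2 (adjusted p = 5.09e-11) and 19.3% with Nrf1 (adjusted p = 2.99e-05). The difference between the factors was itself past the test for both genes, at 0.51 on the log2 scale for *Prdx6* (adjusted p = 4.68e-09) and 0.43 for *Prdx3* (adjusted p = 2.69e-08).

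*Prdx5*, which is found in mitochondria, peroxisomes and the cytosol, was the only one of the 10 that was higher in Nrf1 than in Nrf2 libraries past the test. It was measured at 171, 179 and 164 CPM in LacZ, 296, 276 and 294 in Nrf1 and 203, 216 and 217 in Nrf2 libraries. The 3 groups did not overlap, with Nrf2 between the others. Nrf1 raised it 1.68-fold (log2 fold change 0.75, adjusted p = 1.40e-11) and Nrf2 1.23-fold (0.30, adjusted p = 7.37e-06), and the log2 fold change of Nrf2 over Nrf1 was -0.45 (interval -0.53 to -0.37, adjusted p = 1.98e-08).

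*Prdx4* encodes the peroxiredoxin of the endoplasmic reticulum, where secreted proteins fold. It had 108, 107 and 116 CPM in LacZ, 56.9, 60.0 and 62.6 in Nrf1 and 92.4, 89.9 and 97.6 in Nrf2 libraries, the lowest group being Nrf1. With Nrf1 it fell by 45.9% (log2 fold change -0.89, interval -0.999 to -0.774, adjusted p = 4.33e-11), and with Nrf2 by 15.6% (-0.24, adjusted p = 0.000255), the latter not called. Nrf2 libraries were 1.56-fold above Nrf1 libraries (adjusted p = 8.33e-09). The summed fibroblast markers had the same order of groups, LacZ above Nrf2 above Nrf1, in a sum made up mostly of *Col1a1* (9530 CPM in LacZ). Of the 8 markers, 6 were called higher in Nrf2 than in Nrf1 libraries and 1 was called lower. Over all genes tested these shares were 11.2% and 4.18%. The part of these markers in the *Prdx4* result was not tested.

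*Prdx2* encodes a further cytosolic peroxiredoxin. Its values were 203, 181 and 195 CPM in LacZ, 216, 215 and 220 in Nrf1 and 230, 229 and 232 in Nrf2 libraries. It rose by 12.4% with Nrf1 (log2 fold change 0.17, adjusted p = 0.00101) and by 19.4% with Nrf2 (0.26, adjusted p = 1.71e-05). The difference between the factors was 0.09 (adjusted p = 0.0613), and it passed the test when either the first or the second LacZ library was left out (adjusted p = 0.0367 and 0.0161). The log2 fold change itself was then 0.0851 and 0.0872, against 0.0861. LacZ libraries enter this comparison mainly through the estimate of spread, which all groups share.

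Directly compared, Nrf2 libraries were called higher than Nrf1 libraries for *Txnrd1*, *Srxn1* and *Prdx4*, 3 of 10, and no member was called lower, against 11.2% and 4.18% of all genes tested. On the adjusted p alone, 6 were higher and 1 lower, against 28.3% and 26.7% of all genes. The libraries did not overlap for 7 higher members and 1 lower, against 32.3% and 30.5%. By the authors' deposited means 3 were again higher and 0 lower past 1.5-fold, against 20.1% and 8.72% of listed genes. Ordered by this difference, *Txnrd1* and *Srxn1* were separate from each other and from the rest by their 95% intervals. The intervals of *Prdx4*, *Prdx6*, *Prdx3* and *Prdx1* overlapped from each to the next, as did those of *Prdx2*, *Txnrd2* and *Txnip*, and *Prdx5* was separate at the lower end. The order over LacZ differed between the factors: *Txnrd1* ranked 4 of 10 with Nrf1, where its interval overlapped that of *Prdx6*, and 2 of 10 with Nrf2, where it overlapped that of *Prdx1*.

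**Figure D3:**
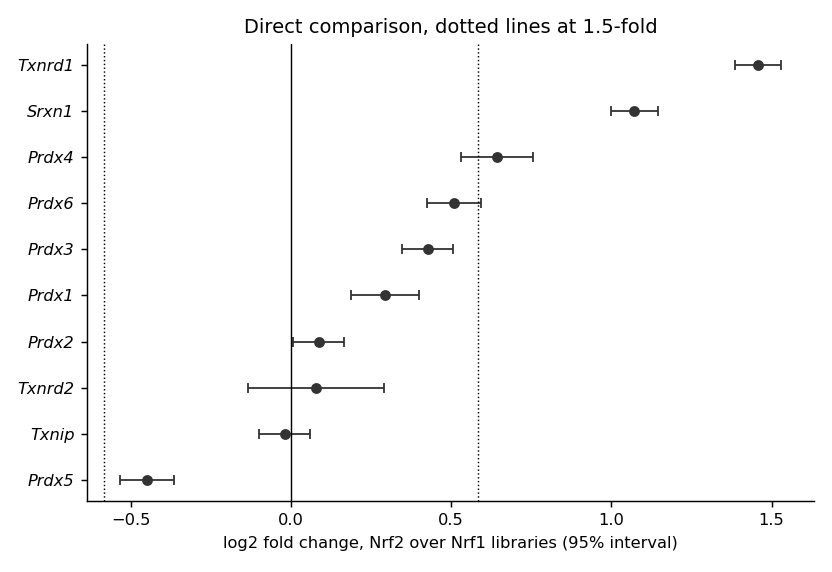
Log2 fold change of Nrf2 over Nrf1 libraries for each gene, with its 95% interval from limma. Dotted lines mark a 1.5-fold difference. *Txnrd1* (1.46), *Srxn1* (1.07) and *Prdx4* (0.64) lie past the upper line, and *Prdx5* (-0.45) is the one gene whose interval lies wholly below 0.

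The other genes of the system were described from lists, which were not tested as sets. Over all genes tested, 10.9% were called higher and 17.0% lower with Nrf1, and 8.91% and 9.83% with Nrf2. On the adjusted p alone these shares were 33.4% and 33.0%, and 28.8% and 27.6%. A count of 1 in lists this short is not read as a response of the list. Of 8 thioredoxin genes tested, 2 were called higher with Nrf1 and 1 with Nrf2. *Txn1*, the cytosolic thioredoxin, rose from 296 ± 9.27 CPM (SD, n = 3) in LacZ to 489 ± 13.2 in Nrf1 and 488 ± 12.7 in Nrf2 libraries, with no difference past the test between the factors (log2 fold change -0.01, interval -0.07 to 0.06, adjusted p = 0.884). *Txn2*, its mitochondrial counterpart, rose by 0.65 on the log2 scale with Nrf1 (adjusted p = 2.72e-10) and by 0.22 with Nrf2 (adjusted p = 0.000358). As with *Prdx5*, the Nrf2 over Nrf1 value was below 0 (-0.42, adjusted p = 7.61e-08).

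Of 5 genes of the glutaredoxin list, 1 was called higher and 1 lower with Nrf1, and 2 higher with Nrf2. *Gsr*, the glutathione reductase, rose from 70.5 ± 4.94 CPM in LacZ to 190 ± 9.08 in Nrf1 and 242 ± 4.73 in Nrf2 libraries. *Glrx*, a cytosolic glutaredoxin, moved in opposite directions, at -0.68 on the log2 scale in Nrf1 libraries (adjusted p = 0.00105) and 1.07 in Nrf2 libraries (adjusted p = 4.06e-07). Of 3 methionine sulfoxide reductases, which repair oxidized methionine, *Msrb1* was called higher with both factors (1.25 and 0.81) and *Msrb2* with Nrf1 (1.202, adjusted p = 9.07e-08), its value with Nrf2 being -0.03 (adjusted p = 0.870).

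Among 7 thioredoxin clients and sestrins, 1 was called lower with Nrf1 and 1 higher with Nrf2, against 17.0% and 8.91% of all genes. *Sesn2*, a stress-induced sestrin, fell by 0.68 on the log2 scale with Nrf1 and by 0.56 with Nrf2, and *Rrm2b*, a ribonucleotide reductase subunit, rose by 0.57 and 0.75. Of 5 relatives and regulators of Txnip, 1 was called higher and 1 lower with Nrf1, and 1 higher with Nrf2. The lower one was *Mlxipl* (log2 fold change -0.81, adjusted p = 0.00888), at a low level of 3.48 ± 0.943 CPM in LacZ and 1.94 ± 0.264 in Nrf1 libraries. *Arrdc3* fell by 0.44 with Nrf1 (adjusted p = 8.48e-06) and had a value of 0.02 with Nrf2 (adjusted p = 0.843). On the adjusted p alone, 1 rose and 2 fell with Nrf1, and 2 rose and 0 fell with Nrf2. *Arrdc4*, an arrestin relative of *Txnip*, rose by 0.62 on the log2 scale in Nrf2 libraries (adjusted p = 0.000328), its value in Nrf1 libraries being -0.13 (adjusted p = 0.423). *Mlx*, the partner of the transcription factors that act on *Txnip*, rose by 0.77 in Nrf1 libraries and by 0.22 in Nrf2 libraries.

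Thioredoxin reductases contain selenocysteine, and of 7 genes for its synthesis and insertion 2 were called higher with Nrf1 and none with Nrf2 (1 rose and 1 fell on the adjusted p). The share of all genes called higher was 10.9% with Nrf1 and 8.91% with Nrf2. *Sephs2*, which makes the selenium donor, rose from 42.0 ± 0.982 CPM in LacZ to 92.7 ± 0.0933 in Nrf1 libraries (log2 fold change 1.14, adjusted p = 1.51e-12) and was at 44.2 ± 2.63 in Nrf2 libraries (0.08, adjusted p = 0.286). *Sepsecs*, which completes selenocysteine on its tRNA, rose by 0.64 with Nrf1 (adjusted p = 1.59e-06) and had 0.03 with Nrf2 (adjusted p = 0.777). The Nrf2 over Nrf1 values were -1.07 for *Sephs2* and -0.60 for *Sepsecs*, both past the test and in the opposite direction to that of *Txnrd1* (1.46). The value of *Txnrd2*, the other reductase of the set, was 0.08 and not past the test (adjusted p = 0.539).

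**Figure D4:**
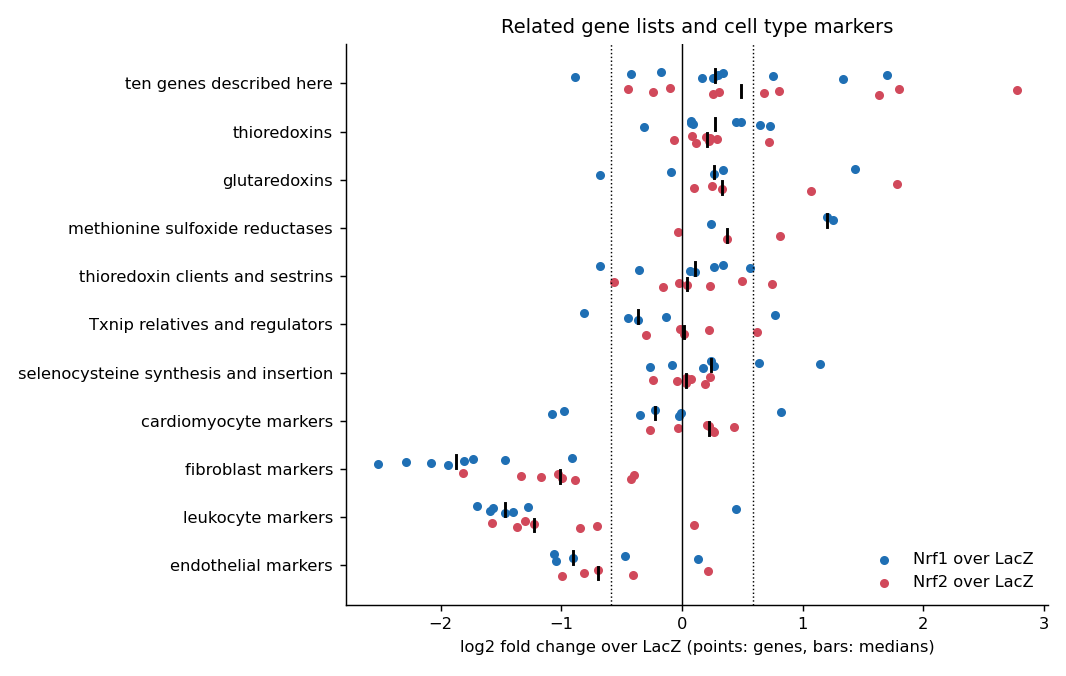
Log2 fold change over LacZ of every tested gene of each list, for Nrf1 (blue) and Nrf2 (red), with the median of each list as a black bar and dotted lines at a 1.5-fold difference. The 10 genes described here have medians of 0.27 and 0.49, the fibroblast markers have the lowest median with Nrf1 (-1.88, and -1.01 with Nrf2), and the leukocyte markers have the lowest with Nrf2 (-1.23, and -1.47 with Nrf1).

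Among 8747 genes compared, those closest to *Srxn1* by their pair of log2 ratios over LacZ were *Entpd5* (1.57 with Nrf1 and 2.83 with Nrf2 from the authors' deposited means), *Akr1cl* (1.64 and 2.97) and *Nefl* (1.69 and 2.55). No gene lay within a distance of 0.1 of *Srxn1*. Closest to *Txnrd1* were *Col11a1* (0.30 and 1.78), *Pgm2l1* (0.28 and 1.79) and *Spata1* (0.37 and 1.73), the 3 genes within that distance. *Txnip* had 136 genes within it, the closest being *Dimt1*, *Zfp496* and *Ppargc1a*. The distance is Euclidean, over 2 comparisons that share their LacZ libraries, and takes no account of spread. Limma standard errors with Nrf1 were 0.19 for *Nefl* and *Spata1*, 0.10 for *Pgm2l1* and 0.05 for *Col11a1*. Whether genes with the larger errors lie within 0.1 is thus uncertain.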

How the data were processed

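NRVM RNA was sequenced in 9 libraries, 3 per group. Per the labels and the study's methods, stranded libraries made with the KAPA mRNA HyperPrep kit were aligned to rat Rnor_6.0 with HISAT2 2.0.4, duplicates were removed with SAMtools 0.1.18, and reads were counted with featureCounts 1.6.0. The strand setting of the counting, and how reads shared with processed gene copies were treated, are not given in the sources used here. Duplicate removal can lower the counts of highly expressed genes.

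The signal the authors deposited in 3 tables, each for 1 pair of groups, is a group mean of read counts divided by size factors. The authors' columns of fold change and p-value were not used, and 0 columns of single samples were left unused. Whole-number reads of the 3 libraries of a group were solved from its 2 means. A unique solution was found for 14656 of 14657 genes in LacZ, 14579 of 14579 in Nrf1 and 14746 of 14746 in Nrf2, and size factors recomputed from the solved reads matched those implied by the means within 0.00787%. Genes are identified by symbol, and no coordinates were used.

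Genes above 1 CPM in 3 or more libraries were tested with limma 3.58.1 (voom weights, TMM normalization) in R 4.3.3, in 1 fit over 9 libraries, with two-sided tests and Benjamini-Hochberg adjustment. Genes were called at an adjusted p under 0.05 and a fold change above 1.5. The solving and the fit were tested on simulated data. Genes named beside the members are those of the lists past 1.5-fold in a deposited table with a mean of at least 100 in 1 group, the 3 closest to *Srxn1*, *Txnrd1* and *Txnip*, and *Nfe2l2*. Of these, marker genes are given mainly by counts. *Csf1r*, *Kdr*, *Mlxipl* and *Arrdc3* are named outside this rule, to show values that go against the others of their lists or stand behind a count. The members and lists were chosen with earlier results of these data known. Planned searches of promoters and proteins for motifs were not run, because the reference used is of mouse. The alternatives were other size factors, library totals, limma-trend, no filter, each library left out, other cutoffs, a pseudocount of 1, re-centring and limits on the mean.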

Additional observations from a re-analysis of the deposited data

How the results depend on the processing

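The counts of called members were unchanged in every alternative fit to the solved reads, each library left out included. No paired analysis was possible because the solved libraries could not be matched to replicate numbers. On the adjusted p alone, 9, 9 and 7 members passed for Nrf1 over LacZ, Nrf2 over LacZ and Nrf2 over Nrf1, and over all genes 3869 were higher and 3823 lower, 3343 and 3204, and 3279 and 3096. With a fold cutoff of 2 on the deposited means, 2 members were past it for Nrf1 over LacZ, 3 for Nrf2 over LacZ and 2 for Nrf2 over Nrf1. The shares of listed genes higher and lower were 7.67% and 15.8%, 9.95% and 8.66%, and 12.7% and 4.49%. At that cutoff, listed genes numbered 1134 higher and 2331 lower, 1489 and 1296, and 1893 and 670 in the 3 comparisons in the same order, against 2228 and 3593, 2332 and 2325, and 2995 and 1300 at 1.5-fold. With a mean of at least 10 they numbered 1359 and 2072, 1136 and 1270, and 1418 and 594, and with a mean of at least 100, 995 and 1021, 665 and 576, and 649 and 367. These settings test fewer genes or ask for more, and the members past 1.5-fold were 4, 5 and 3 at each limit on the mean. The limits also move the split: for Nrf1 over LacZ 15.1% of listed genes were higher and 24.3% lower, but 11.6% and 11.9% at a mean of at least 100. The *Txnip* value for Nrf2 over Nrf1, not past the test, lay between -0.0477 and 0.0097 with each library left out in turn, the latter (adjusted p = 0.866) without the first Nrf2 library, against -0.02. Library totals moved the median of all genes to -0.06 for Nrf1 and -0.09 for Nrf2 over LacZ. Intervals of *Txnrd2* were the widest, with the fewest reads.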
